A study of Mus musculus with 10 samples.

Results

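Mast cells are resident immune cells whose granules are filled with proteases and histamine, and 9 genes that mark them were followed through 5 tissues of old mice. The genes were chosen by name as mast cell genes, with the tissue levels and the diet ratios of these same arrays already known, so both are given as descriptions. Every probe set that the platform annotation pairs with exactly 1 of the 9 symbols was taken, which gave 12 of the 45101 probe sets on the array. Each gene was represented by its brightest probe set, among 18194 genes in all. Probe sets whose names end in a_at or s_at, which here read Mcpt4, Cma1, Tpsb2 and Hdc, can bind more than 1 transcript.

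The animals were male ICR mice, an outbred stock, aged 28 months and housed singly under specific-pathogen free conditions. From 8 months of age they ate either the AIN-93 diet (control) or the same diet with LB81 yogurt, a milk fermented by lactic acid bacteria, mixed in at 1–2%. RNA from 10 yogurt-fed or 9 control mice was pooled in equal amounts, which gave 1 array per diet in each of jejunum, ileum, distal colon, liver and spleen. A pool averages out the spread between mice before it is measured, so the diet ratios below have no replicates behind them and no test. High levels of a marker of the labelled tissue were found in each: Alb, the albumin gene, stood at 14.4 and 14.3 on the log2 scale in liver, Fabp6, an ileal bile acid carrier, at 13.8 in both ileum pools, Hoxb13, a gene of the hindmost gut, at 11.5 and 11.8 in distal colon, Ms4a1, the B cell gene of CD20, at 12.4 and 12.3 in spleen, and Lct, the lactase gene, at 9.98 and 10.5 in jejunum. The jejunum pools also held high levels of gastric and pancreatic markers, with the gastric gene Tff2 at 13.4 and 13.7 and the pancreatic elastase gene Cela2a at 13.2 and 11.9, against at most 6.76 and 5.81 on the other arrays.

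Mouse mast cells are commonly divided by where they sit. Mucosal mast cells lie in the epithelium and lamina propria of the gut and carry the chymases Mcpt1 and Mcpt2. Connective tissue mast cells lie around vessels, in the submucosa and in capsules, and carry the chymase Mcpt4, the chymase relative Cma1, the tryptase Tpsb2 and carboxypeptidase A3 (Cpa3). Fcer1a and Ms4a2 encode the alpha and beta chains of the high-affinity IgE receptor, through which allergens and parasites trigger degranulation, and which basophils share. Hdc encodes histidine decarboxylase, which makes histamine in mast cells, basophils and the enterochromaffin-like cells of the stomach. In whole tissue, fewer cells of a type and less RNA per cell cannot be told apart.

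Most values of these genes were low for the array. The median of an array, used below as a floor that lower values are raised to, lay between 5.42 and 5.50 on the log2 scale. Hdc was above it on 7 of 10 arrays, Tpsb2 on 5, Cma1 and Cpa3 on 4, Mcpt1 and Mcpt2 on 2, Mcpt4 and Fcer1a on 1 and Ms4a2 on 0. A gene was called measured in a tissue where 1 or both pools exceeded the floor, and a ratio against the floor is a lower bound. Where the deposited values below the floor are given, they are named as such.

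The chymase genes sit side by side in the RefSeq annotation of chromosome 14, and promoter windows from 250 bases before to 50 after the gene start were available for 7 of the 9 genes. Those of 4 genes are printed because they contrast: Mcpt1 and Mcpt4 have similar windows, while Mcpt1 was above the floor in jejunum alone and Mcpt4 in the yogurt pool of spleen alone, and Cma1 and Cpa3 had the largest diet ratios in spleen where both pools were above the floor. The sequences are from RefSeq, build GRCm38.p6, 5′ to 3′ along the gene, and capitals mark GATAA on either strand (TTATC where it lies on the other strand), the core of the motif bound by GATA factors, which include Gata2 of mast cells.

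Mcpt1 promoter, chr14:56017714-56018013, plus strand: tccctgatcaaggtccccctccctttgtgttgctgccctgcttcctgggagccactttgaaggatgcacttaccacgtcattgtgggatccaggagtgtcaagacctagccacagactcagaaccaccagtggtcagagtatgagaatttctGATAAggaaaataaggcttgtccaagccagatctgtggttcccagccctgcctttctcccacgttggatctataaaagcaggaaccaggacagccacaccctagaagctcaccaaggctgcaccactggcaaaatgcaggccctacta

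Mcpt4 promoter, chr14:56062261-56062560, minus strand: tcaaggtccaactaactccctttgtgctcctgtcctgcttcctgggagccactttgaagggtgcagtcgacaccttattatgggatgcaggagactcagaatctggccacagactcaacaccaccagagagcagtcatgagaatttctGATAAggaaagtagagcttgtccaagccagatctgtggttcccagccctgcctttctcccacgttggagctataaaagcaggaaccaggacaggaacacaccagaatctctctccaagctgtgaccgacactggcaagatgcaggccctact

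Cma1 promoter, chr14:55944626-55944925, minus strand: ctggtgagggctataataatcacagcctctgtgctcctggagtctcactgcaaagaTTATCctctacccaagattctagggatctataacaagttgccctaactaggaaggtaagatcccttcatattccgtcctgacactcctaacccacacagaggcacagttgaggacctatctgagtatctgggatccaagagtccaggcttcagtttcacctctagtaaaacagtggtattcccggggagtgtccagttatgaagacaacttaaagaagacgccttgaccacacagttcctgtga

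Cpa3 promoter, chr3:20242132-20242431, minus strand: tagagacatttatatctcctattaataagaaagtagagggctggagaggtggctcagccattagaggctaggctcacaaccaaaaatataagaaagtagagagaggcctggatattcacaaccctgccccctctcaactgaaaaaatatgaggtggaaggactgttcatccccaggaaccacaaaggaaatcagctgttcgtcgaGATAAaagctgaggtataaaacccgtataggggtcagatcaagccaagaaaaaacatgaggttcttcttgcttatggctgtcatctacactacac

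The Mcpt1 and Mcpt4 windows had 249 identical bases of 291 aligned (85.6%), with 18 further bases opposite gaps. The other 20 pairs of the 7 windows had 55.2% to 67.7%. GATAA was found in 6 of the 7 windows, all but that of Hdc, and in 25.4% of all 32851 promoter windows of the same length. In Mcpt1 it lay at bases -98 to -94 from the gene start and in Mcpt4 at -102 to -98, each followed by TATAAA (4 of 7 windows, 13.6% of all), at -28 to -23 and -32 to -27. In Cpa3, GATAA lay at -45 to -41. The E-boxes CATGTG, present in the Fcer1a window alone among the 7 and in 14.2% of all, and CACGTG, in 0 of the 7 and 7.15% of all, were searched as motifs of the mast cell factor MITF. Both strands were searched, no match of a motif overlapped that of another in these windows, and a match describes letters only.

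**Figure D1:**
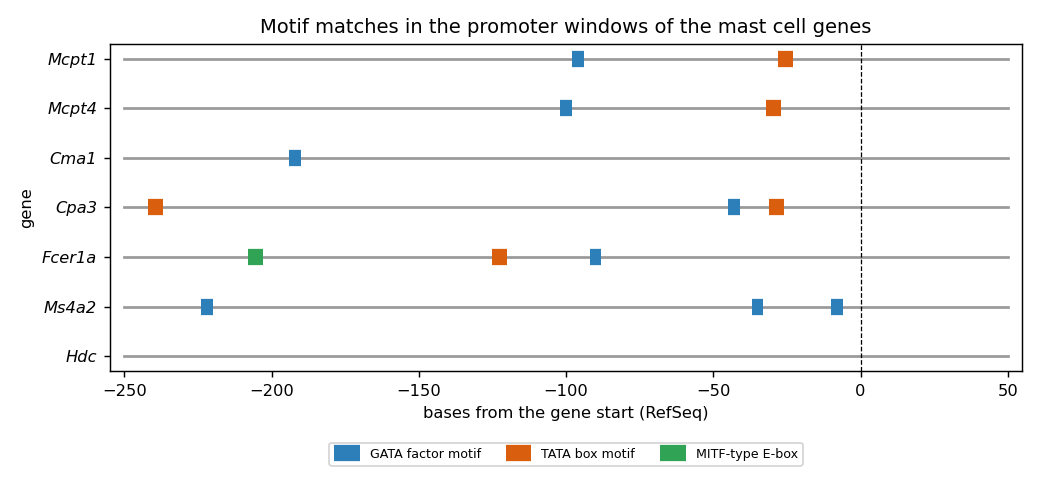
Matches of 3 searched motifs in the promoter windows of 7 mast cell genes, drawn on the x axis in bases from the RefSeq gene start. Coloured blocks are matches on either strand. Mcpt1 and Mcpt4 carry the same pair of motifs at positions that differ by a few bases between the genes, and the Hdc window has no match.

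The mucosal chymase genes were jejunal. Mcpt1 stood at 6.73 in jejunum of yogurt-fed mice and 7.04 in that of controls, the order kept below, and at 4.57 and 4.50 in ileum. Its values were 4.37 and 4.50 in distal colon, 3.89 and 3.94 in liver, and 3.66 and 3.55 in spleen. Both jejunum pools lay above all 8 other arrays, which were all below the floor, and ileum and distal colon met at 4.50. Mcpt2 followed the same order, at 7.25 and 7.35 in jejunum, 5.48 and 5.39 in ileum, and 5.12 and 5.20 in distal colon. In liver Mcpt2 was at 4.32 and 4.57 and in spleen at 4.15 and 4.22. Again only the 2 jejunum pools were above the floor.

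A limma fit on tissue and diet over all 10 arrays measured these tissue differences against how far a gene's diet ratio varied over the 5 tissues. It covered 13599 genes above the floor on at least 2 arrays, 6 of the 9 mast cell genes among them. Mcpt1 and Mcpt2 entered it through their jejunum pools alone, so their jejunal difference was set by that filter and by the choice of genes, and is given as a description. In jejunum against ileum, Mcpt1 differed by 1.40 and Mcpt2 by 1.82 on the floored log2 scale, both lower bounds because the ileum values are the floor. In distal colon against jejunum they differed by -1.40 and -1.81. A difference was called at 2-fold or more with p under 0.05 after Benjamini-Hochberg adjustment, and the other 4 fitted genes gave 0 calls by limma in either contrast, with 0 of them at an unadjusted p under 0.05 in the first and 1 (Cma1) in the second. Of all genes fitted, 2.26% were called higher and 2.68% lower in jejunum against ileum, and 7.65% higher and 4.52% lower in distal colon against jejunum. Nothing is read from the members' calls beside these shares, nor from counts at an unadjusted p, which have no such share here. The SEs can be too small, because a gene held at the floor in a tissue shows almost no spread there.

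The genes whose profile over the 10 arrays was most like the mean of Mcpt1 and Mcpt2 were other genes above the floor in jejunum alone. They were the intestinal alkaline phosphatase gene Akp3, Lct, the gastric homeobox gene Nkx6-3, the gastrokine gene Gkn1 and the proton channel gene Otop3, with Pearson correlations from 0.9992 to 0.9998 among 8408 genes with a range of at least 1. Gkn1, made by surface cells of the stomach, was at 10.9 and 11.3 in jejunum and at most 5.06 elsewhere. With 1 tissue above the floor, such a correlation describes only that shared tissue. The gastric list as a whole had a summed signal of 30514 and 37468 in jejunum against 1338 and 1292 in ileum, and the part of gastric tissue in the jejunal level of the chymases was not tested.

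**Figure D2:**
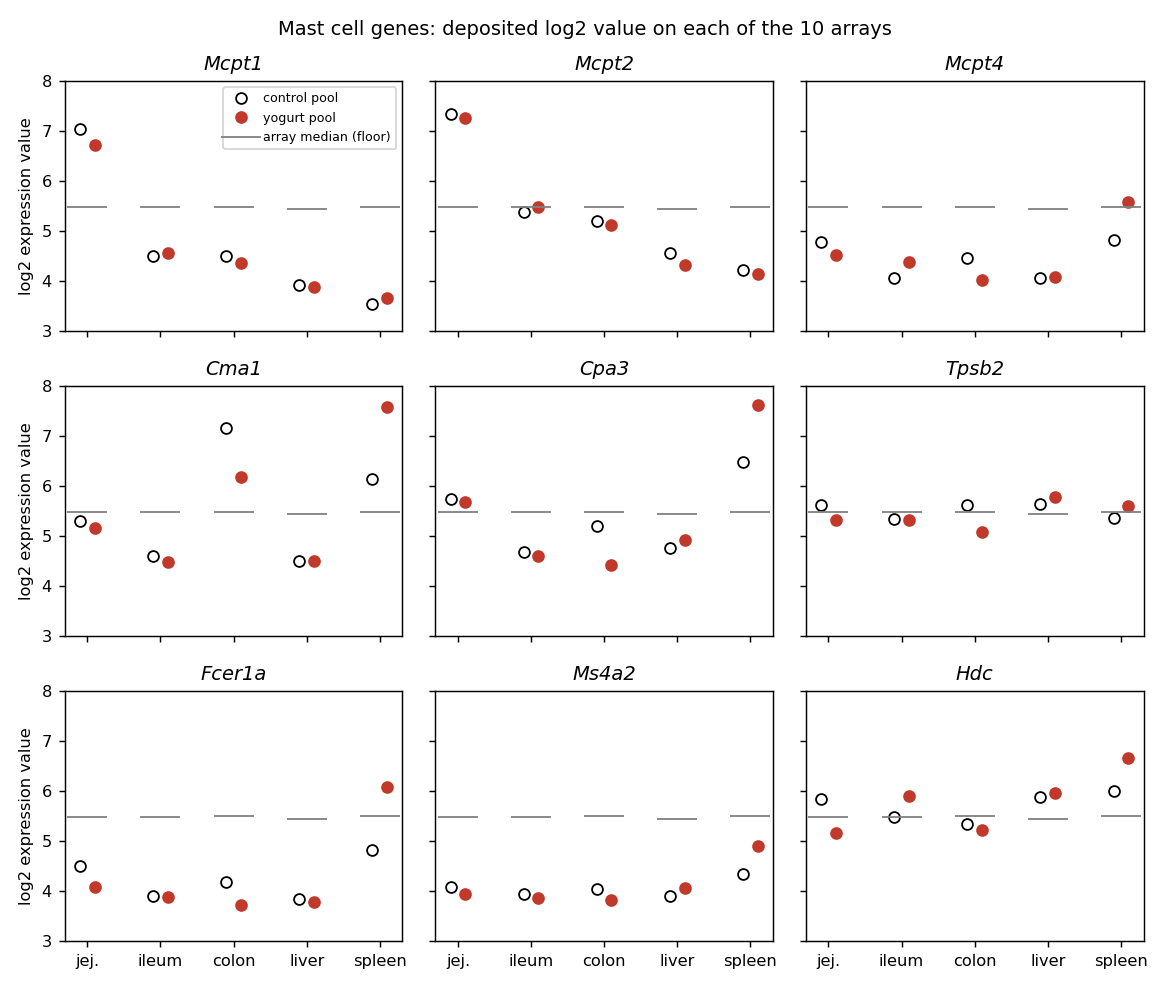
Deposited log2 expression value of each mast cell gene (1 panel per gene, brightest probe set) in the 5 tissues, with open circles for the control pool, filled circles for the yogurt pool and grey bars for the array median. Mcpt1 and Mcpt2 exceed the median in jejunum alone, Cma1 in distal colon and spleen, and Fcer1a and Mcpt4 in the yogurt pool of spleen alone.

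The connective tissue genes were distributed otherwise, and differed among themselves. Cma1, a chymase relative, was at 7.58 (yogurt) and 6.14 (control) in spleen. It was at 6.18 and 7.17 in distal colon, so the pools of these tissues overlapped. All 6 other arrays were below the floor, at 5.16 and 5.29 in jejunum, 4.49 and 4.60 in ileum, and 4.50 and 4.51 in liver.

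Cpa3, which trims peptides and toxins in mast cell granules, was at 7.62 and 6.47 in spleen. It reached 5.69 and 5.74 in jejunum. The values were 4.43 and 5.20 in distal colon, 4.61 and 4.69 in ileum, and 4.93 and 4.75 in liver. Both spleen pools exceeded every other array, and both jejunum pools exceeded those of ileum, distal colon and liver.

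Mcpt4, the main chymase of connective tissue mast cells, was above the floor only in the yogurt pool of spleen, at 5.58, against 4.82 in the control pool. The other 8 arrays lay between 4.03 and 4.79. Tpsb2, a tryptase stored in a complex with heparin, hardly varied, with liver highest at 5.78 and 5.63. Its distal colon pools, at 5.08 and 5.62, spanned those of jejunum (5.31 and 5.61), ileum (5.33 and 5.35) and spleen (5.61 and 5.36). Its other probe set lay below the floor on all 10 arrays, between 3.85 and 4.18.

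Spleen was called higher than the mean of the gut segments for Cpa3 alone of the 6 fitted genes, by 1.48 (SE 0.22), which is a description too, since the tissue levels were known. Of all genes, 10.9% were called higher. The same contrast gave 0.98 (SE 0.37) for Cma1 and 0.72 (SE 0.17) for Hdc, which were not called. None of the 6 was called lower in spleen on the floored scale (0, beside 17.2% of all genes). With no floor, Mcpt1 and Mcpt2 were called lower, beside 2647 of all 18194 genes. An unadjusted p under 0.05 by limma was found for 5 of the 6. The share of all genes at that p is not given, so nothing is read from this count or the like counts below. Of these 5, Cma1, Cpa3 and Hdc were higher in spleen, and Mcpt1 (-0.46, SE 0.08) and Mcpt2 (-0.60, SE 0.05) were lower. Both pools of Mcpt1 and Mcpt2 were at the floor in spleen, and also in ileum and distal colon. Their floored differences therefore come from the jejunum pools that let them into the fit, and do not describe spleen. Distal colon against ileum gave 1.19 (SE 0.45) for Cma1. There 0 of the 6 were called in either direction, beside 4.88% higher and 3.99% lower of all genes. Only 1 (Cma1) had an unadjusted p under 0.05. In liver against gut 0 of the 6 were called by limma, beside 10.5% higher and 15.7% lower of all genes. An unadjusted p under 0.05 was found for 3, namely Mcpt1 (-0.52), Mcpt2 (-0.65) and Tpsb2 (0.18). Mcpt1 and Mcpt2 were at the floor in liver too, so their differences again come from the jejunum pools. Most of these counts moved with the floor, and their range stands with the processing.

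The genes nearest to the mean profile of Cma1, Mcpt4 and Tpsb2 followed it less closely than was the case for the mucosal chymases. On the floored scale this profile mostly follows Cma1, which reached 7.58. Mcpt4 was above the floor on 1 array, at 5.58, and Tpsb2 reached at most 5.78. The nearest genes therefore do not describe a profile shared by all members of this mean. These nearest genes were Nxpe4, Slfn4, Usp46, Stim1 and 5830428M24Rik, at correlations from 0.8597 to 0.8759. Slfn4, a myeloid gene, was at 9.11 and 7.62 in the yogurt and control pools of spleen and 8.57 and 8.13 in distal colon. Stim1, the calcium sensor of the endoplasmic reticulum, was bright in every tissue, between 7.95 and 9.05.

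Both receptor chains were highest in spleen. Fcer1a was at 6.08 (yogurt) and 4.82 (control) in spleen, and between 3.72 and 4.50 on the other 8 arrays, all below the floor. Ms4a2 was at 4.90 and 4.33 in spleen and between 3.82 and 4.07 elsewhere, so it never reached the floor, and its second probe set stayed between 3.56 and 3.99. Fcer1g, the gamma chain that other Fc receptors of macrophages and neutrophils also use, was present in all tissues, at 10.5 and 10.8 in spleen. Hdc was at 6.65 and 6.0 in spleen, 5.96 and 5.87 in liver, 5.90 and 5.48 in ileum, 5.16 and 5.83 in jejunum, and 5.22 and 5.33 in distal colon. The jejunum pools spanned those of distal colon and overlapped those of ileum, ileum and liver overlapped, and spleen alone stood above all other tissues. The second Hdc probe set was above the floor in spleen alone, at 6.98 and 5.89.

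The largest diet differences of mast cell genes were in spleen, where the yogurt pool was higher. Cma1 was 2.70-fold higher (log2 ratio 1.44) and Cpa3 2.22-fold higher (1.15). Fcer1a was at least 1.52-fold higher (0.60 against the floor, 1.26 in the deposited values) and Hdc 1.57-fold higher (0.65), with 1.08 for its second probe set. These 4 of 6 measured genes were at least 1.5-fold higher, beside 0.632% of the 11875 genes measured in spleen, and 0 were at least 1.5-fold lower, beside 1.09%. Both Fcer1a and Hdc lay near the threshold. Centring the arrays left 3 such genes, with Fcer1a at 0.58, and a pseudocount in place of the floor also left 3, with Hdc at 0.46. A floor raised to the 65th percentile left 2, since Hdc had 0.09 and Fcer1a was at the floor in both pools. The median of the 6 ratios was 0.62, against -0.05 over all measured genes. Fcer1a, Mcpt4 and Tpsb2 were measured here through the yogurt pool alone, and the genes were chosen with the diet ratios known. Nothing is therefore read from the diet counts or medians of members beside those of all genes, here or in the other tissues.

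With values below the floor counted, 8 of the 9 genes were higher in the yogurt pool of spleen. The exception was Mcpt2 at -0.07, and 5 were at least 1.5-fold higher with Mcpt4 at 0.76. Of all 18194 genes, 45.4% had a higher value, 0.654% were at least 1.5-fold higher and 1.04% at least 1.5-fold lower. Ms4a2 had a deposited ratio of 0.57 for its brighter probe set and 0.12 for the other, both below the floor. Tpsb2 was at least 1.09-fold higher (deposited ratio 0.24, and -0.05 for its dim second probe set), and Mcpt1, a mucosal gene near its lowest here, had 0.11.

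Other mast cell genes in spleen differed in both directions. Of a list of 32 genes, 28 were on the array by name and 19 measured, of which 11 were higher and 8 lower in the yogurt pool, with a median of 0.03. Ctsg, the cathepsin G gene next to the mast cell chymases and shared with neutrophil precursors, was 3.37-fold higher (1.75). Rgs13, a regulator of G protein signalling in mast cells and germinal centre B cells, was at least 8.39-fold lower (-3.07 against the floor, from 8.56 in the control pool to 4.49). Csf2rb2, a receptor chain for interleukin-3, was 1.58-fold lower (-0.66). Kit, the receptor that mast cells need to survive, had 0.17 and Gata2 0.22. Larger ratios lay on both sides, with Hpgds at -0.39, Mitf at -0.36, Lat2 at -0.35 and Fcer1g at -0.29. Alox5 and Slc6a4 had 0.35 and Alox5ap 0.31. Below the floor, the tryptase gene Tpsab1 had a deposited ratio of 0.85, the receptor gene Mrgprb1 0.49 and the vesicular amine transporter gene Slc18a2 0.46.

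Markers of other blood cells differed in the same spleen arrays. The neutrophil granule genes Prtn3, Mpo and Elane, looked up after Ctsg had been seen, had log2 ratios of 1.90, 1.68 and 1.30, and Ms4a3, a gene of granulocyte precursors, 1.25. The eosinophil list had 5 of 7 genes measured and a median of 0.28, led by Il5ra at a ratio of at least 1.14, followed by Ccr3 at -0.38 and Epx at 0.32. Of the basophil list 4 of 9 genes were measured, with a median of -0.44 (Cd69 -0.83, Ccl3 -0.80), while the basophil protease gene Mcpt8 had at least 0.07 and Cd200r3 stood below the floor at 3.44 and 3.41. All 9 macrophage genes were lower (median -0.36). The summed antilogged signal in the yogurt and control pools was 468 and 647 for the basophil list, 934 and 771 for the eosinophil list, and 14358 and 16446 for the macrophage list. The brightest gene of the basophil list was Cd69, at 7.35 and 8.17, while Mcpt8 was at 5.55 and 5.40. The lower basophil sum therefore does not describe Mcpt8. The part of these other blood cells in the ratios of the mast cell genes was not tested.

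**Figure D3:**
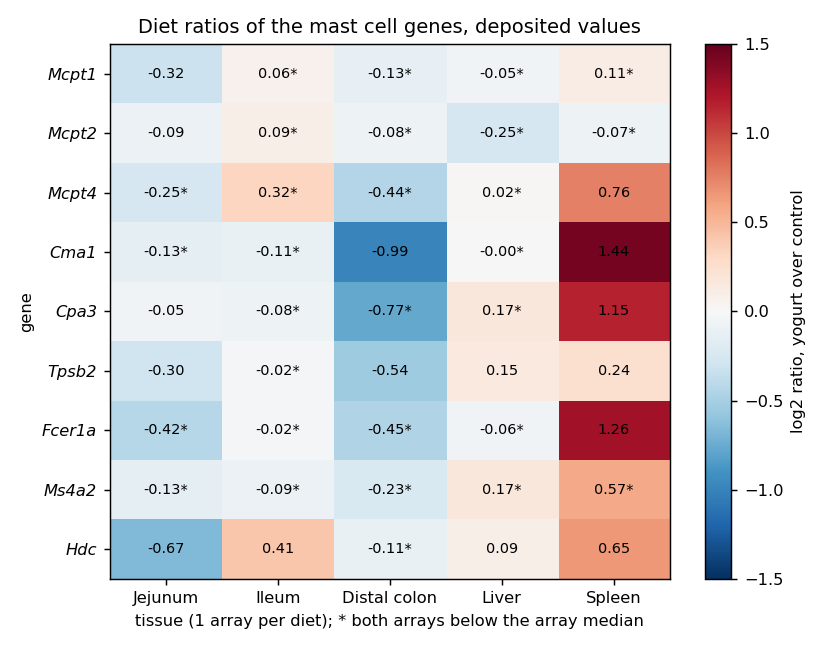
Log2 ratio of yogurt over control from the deposited values for each mast cell gene (rows) in each tissue (columns), 1 array per diet, with red for higher and blue for lower in the yogurt pool and a star where both arrays lay below the array median. The spleen column is red for 8 of 9 genes, and the distal colon and jejunum columns are blue for all 9.

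In distal colon the yogurt pool was lower. Cma1, the only member above the floor in both pools, was 1.98-fold lower (-0.99). Tpsb2, above the floor in the control pool alone, was at least 1.09-fold lower (-0.13, and -0.54 in the deposited values). Thus 1 of 2 measured genes was at least 1.5-fold lower, beside 0.089% of 12362 genes measured, and 0 were at least 1.5-fold higher, beside 0.946%. The count of 1 became 0 once the floor was raised to the 65th percentile, which lies above the Cma1 value of the yogurt pool and gives a ratio of -0.44. In the deposited values all 9 genes were lower, with a median of -0.44 against -0.02 over all genes, 43.3% of which had a higher value. Cpa3 at -0.77, with both pools below the floor, joined Cma1 past 1.5-fold, beside 0.104% of all genes lower and 0.841% higher. Fcer1a had -0.45 and Mcpt4 -0.44, also with both pools below the floor.

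Other mast cell genes in distal colon did not share one direction, with 8 of 19 measured genes higher and 11 lower and a median of -0.01. Tph1, which makes serotonin in mast cells and enterochromaffin cells, was 1.76-fold higher (0.81). Kit, which also marks the pacemaker cells of the gut wall, had 0.36 and the lipoxygenase gene Alox5 -0.37. The tryptase gene Tpsab1 stood below the floor with a deposited ratio of -0.53.

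Markers of the gut wall layers differed on the same colon arrays. All 12 smooth muscle genes were lower (median -0.26, summed signal 35269 and 41049), with Smtn at -0.46. All 6 measured adipocyte genes were higher (median 1.17, summed signal 4895 and 2251), with Car3 at 1.98. The connective tissue and peritoneal list had 2 of 9 genes higher and a median of -0.06, and the epithelial list 5 of 8 higher and a median of 0.06, with the enterocyte fatty acid binding gene Fabp2 3.11-fold higher (1.63). The part of these layers in the ratios of the mast cell genes was not tested.

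**Figure D4:**
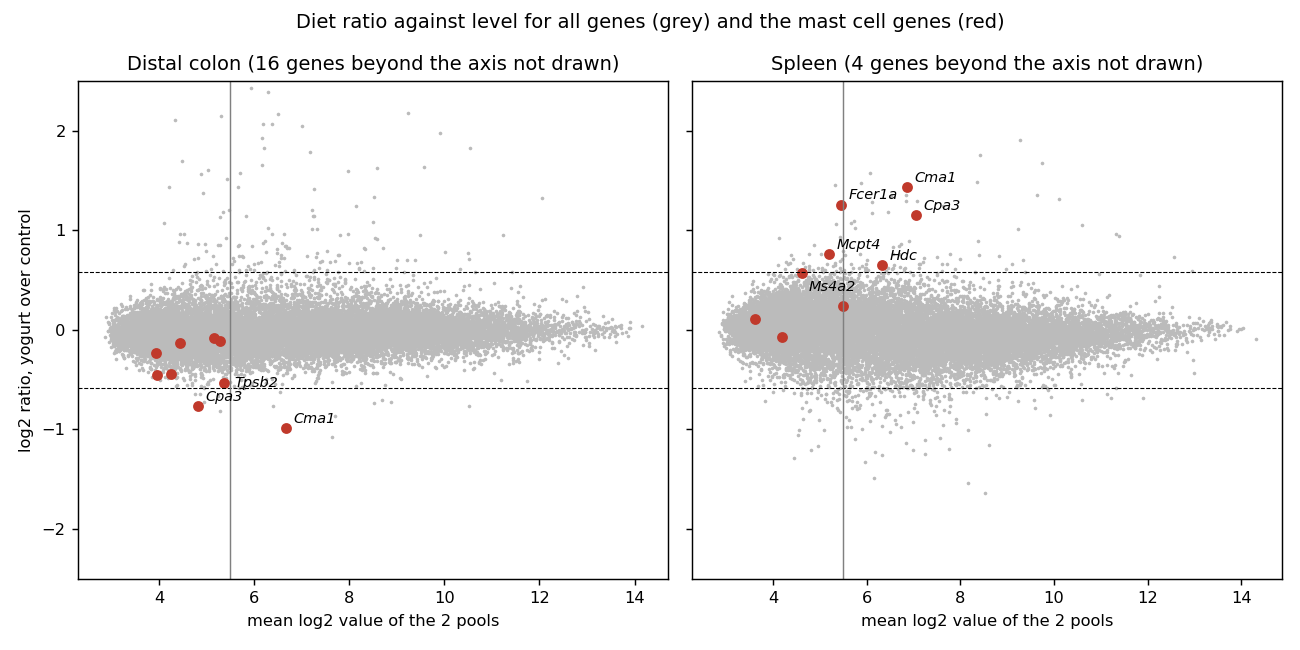
Log2 ratio of yogurt over control (y axis) against the mean log2 value of the 2 pools (x axis) for all genes (grey points) and the 9 mast cell genes (red, named where the ratio is at least 0.5 in size), in distal colon and spleen. Dashed lines mark 1.5-fold and the vertical line the array median. 16 genes in distal colon and 4 in spleen lie beyond 2.5 on the y axis and are not drawn. In distal colon Cma1 and Cpa3 lie below the lower line, and in spleen Cma1, Fcer1a, Cpa3, Mcpt4 and Hdc lie above the upper line.

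In jejunum the deposited values of the brightest probe set of every member were lower in the yogurt pool. The dimmer second probe sets did not share this direction, with deposited ratios below the floor of 0.13 for Tpsb2 and 0.05 for Ms4a2. Mcpt1 had a ratio of -0.32, Mcpt2 -0.09 and Cpa3 -0.05, and Tpsb2 at most -0.14 against the floor. Hdc was at least 1.28-fold lower (-0.36 against the floor, -0.67 in the deposited values), while its second probe set had 0.04. On the floored scale 0 of the 5 measured genes passed 1.5-fold in either direction, beside 0.636% of 12272 genes higher and 0.244% lower, but the value of Hdc there is a bound. In the deposited values 1 gene, Hdc, was at least 1.5-fold lower (1.59-fold), beside 0.22% of all genes lower and 0.627% higher. The median of the 9 deposited ratios was -0.25, and 46.5% of all genes had a higher value. On the same arrays all 14 exocrine pancreas genes were at least 1.5-fold higher (median 1.47, summed signal 88557 and 33201), and 9 of 11 measured gastric genes were lower (median -0.41, summed signal 30514 and 37468), led by Gast at -1.47, the gastrin gene. Hdc is active in gastric enterochromaffin-like cells, and the part of gastric or pancreatic tissue in these ratios was not tested.

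Ileum and liver showed small ratios. Hdc was the only member measured in ileum, with a ratio of 0.41 and, from its second probe set below the floor, -0.10. In ileum 0 of 1 was past 1.5-fold, beside 0.211% of 12295 genes higher and 0.293% lower, and 4 of the 9 deposited values were higher in the yogurt pool, beside 42.8% of all genes. In liver Tpsb2 had 0.15 and Hdc 0.09, so 0 of 2 were past 1.5-fold, beside 0.502% of 12161 genes higher and 0.337% lower, and 5 of the 9 deposited values were higher, beside 46.4% of all genes.

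Genes that respond to histamine or clear it, and signals that act on mast cells, were listed too. Of the histamine list of 11 genes, which holds its receptors and the enzymes that break it down, 6 to 9 genes were measured in each tissue and 0 was past 1.5-fold in any, with medians from -0.05 to 0.01. Aoc1, the diamine oxidase that clears histamine in the gut, had a ratio of -0.16 in distal colon and 0.03 in jejunum, and Hnmt, the histamine methyltransferase, -0.38 in spleen. Of the 24 genes of type 2 signals and mast cell growth, 14 were measured in spleen and 10 were lower (median -0.06). Il33, an alarmin that activates mast cells, was 2.14-fold lower there (-1.10), followed by Itgae at -0.86, a gene of the integrin that holds cells in epithelium, and Il13ra1 at -0.85. In jejunum 11 of 14 measured genes of this list were higher (median 0.15). Retnlb, a goblet cell gene induced by interleukin-13, led the list with -0.87 in jejunum, -0.51 in ileum and 0.58 in distal colon. Kitl, the growth factor of mast cells, had ratios of 0.06 in spleen and 0.19 in distal colon.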

How the data were processed

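The values are log2 expression values per probe set as deposited by the authors, from 10 Affymetrix mouse genome arrays, 1 per tissue and diet. Per the labels' protocols, RNA of the mice of a group was pooled in equal amounts, amplified and labelled with biotin. MAS5 and affy appear, with no version or role, per the submitters' processing notes. The summarising and scaling steps are not stated in the labels, and nothing was rescaled. The platform annotation paired 34958 probe sets with 1 symbol, 932 with several and 9211 with none. No replicates exist for a diet within a tissue, and the number of arrays limits precision.

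On each array the 50th percentile served as a floor for lower values, and log2 ratios of yogurt over control were computed per gene with Python 3.11.15 and pandas 2.3.3. Tissues were compared across all genes with limma 3.58.1 in R 4.3.3 (lmFit, eBayes with trend, tissue and diet as terms, 4 residual degrees of freedom, Benjamini-Hochberg adjustment), checked on simulated data. Both pools of a tissue come from different mice, and all tissues from the same 2 groups of mice. Windows were aligned globally with biopython 1.88. Members, marker lists and tests were chosen with earlier results of these data known. All members are named. Of each list the rule names up to 3 genes with the largest ratio in a tissue, and other genes of the lists were named after their values were seen. Alternatives were other floors, no floor, a pseudocount, centring, quantile normalization, all probe sets averaged, and 1 diet alone.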

Additional observations from a re-analysis of the deposited data

Results flagged for a closer look

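Cma1, the gene of a chymase relative of connective tissue mast cells, had diet ratios past 1.5-fold in opposite directions in 2 tissues. It was lower in the yogurt pool of distal colon (-0.99 on the log2 scale) and higher in that of spleen (1.44), a difference of 2.42 between the tissues. Each tissue has 1 array per diet, so the difference was not tested.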

How the results depend on the processing

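With 1 pool per diet no replicate could be left out. Of 112 alternative values of 16 diet ratios, 93 stayed within 1 SD of that gene's ratios over the 5 tissues, 18 moved further and 1 was counted as reversed. That SD is wide for Cma1, whose ratio in distal colon became -0.44 under a floor raised to the 65th percentile. Under that floor the ratio counted as reversed, Fcer1a in spleen, was -0.0304, since both pools were at the floor. Further ratios changed sign under that floor but are counted among the 93 or the 18. Mcpt4 in spleen went from 0.10 to -0.03 and Cpa3 in jejunum from -0.05 to 0.01. Hdc went from -0.36 to 0.01 in jejunum, from 0.41 to -0.03 in ileum and from 0.09 to -0.01 in liver. Tpsb2 changed sign in jejunum, distal colon, liver and spleen. Of 115 alternative counts, 97 stayed within 1.5 times the count given and 18 moved. For the diet, the count of members at least 1.5-fold lower in jejunum went from 0 to 1 with the floor at the 35th percentile or none. In distal colon it went from 1 to 0 at the 65th and to 2 with no floor. The count higher in spleen went from 4 to 2 at the 65th. For the tissues, the calls for jejunum over ileum and for distal colon under jejunum went from 2 to 0 at the 65th. Distal colon over or under ileum went from 0 to 1 at the 35th, with no floor and in the control pools alone (counts of 1 diet alone are of genes past 2-fold, with no test). Spleen over or under gut went from 1 to 3 at the 35th (2 higher, 1 lower), 0 at the 65th, 5 with no floor (3 higher, 2 lower), 2 after quantile normalization, 3 in the yogurt pools alone and 0 in the control pools alone. Liver over or under gut went from 0 to 1 at the 35th and 2 with no floor. The cause of these moves was not tested. Signal near background limits every gene here.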

Other observations

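Further marker lists gave small or mixed diet ratios in spleen. The T cell list had 4 of 8 genes higher and a median log2 ratio of 0.01. The tuft cell list had 3 of 5 measured genes higher and a median of 0.13, with Avil at 0.84 and Dclk1 at -0.52. Of the 9 named genes around the chymases on chromosome 14, 3 were measured in spleen, with Ctsg at 1.75, the granzyme gene Gzmb at -0.30 and Mcpt8 at a bound of 0.07. Gzmb was the only one of them measured in jejunum, at 0.32, and in ileum, at 0.20.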
